A study of Mus musculus with 2 samples.

Results

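Translation initiation and elongation factors were taken as the protein-coding genes of the GENCODE M21 annotation whose symbol begins with Eif1 to Eif6, Eef1 or Eef2. This name rule gave 68 of 22028 protein-coding genes, and it takes in the kinases, binding proteins and methyltransferases that act on the factors as well as the factors themselves. Reads fell on 63 of the 68 genes, on 63 in replicate 1 and on 62 in replicate 2. The 5 genes without a read in either library were Eef1akmt3, Eif4e1b, Eif2ak2, Eif4ebp3 and the Y-linked Eif2s3y, and a count of 0 allows a level of up to 2.68 counts per 1000000 reads of annotated genes (CPM) in replicate 1 and 3.07 CPM in replicate 2. Another 6 genes had fewer than 10 reads over both libraries and were not tested, which left 57 for the comparison of the libraries.

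The RNA came from gastrocnemius, a calf muscle, of female B6CASTF1/J mice (first-generation hybrids of a laboratory strain and a wild-derived strain) aged 18 to 20 months, without any treatment. It was read as long reads in 2 libraries, each started from 2 µg of RNA, which the labels call biological replicates 1 and 2 of 1 group. The labels give the same pair of animal identifiers for both and do not say which animals went into which library, so a p-value speaks only of how far apart these 2 libraries are, and part of that can be technical. There is no second condition: the levels in each library and the gap between the libraries are what can be described.

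Initiation starts when a small ribosomal subunit, held ready by eIF1, eIF1A, eIF3 and eIF5, takes up the initiator tRNA carried by eIF2 and is brought to the capped end of an mRNA by the eIF4 factors. It scans to a start codon, GTP on eIF2 is hydrolysed, eIF5B joins the large subunit, and eIF2B recharges eIF2 for another round. In elongation eEF1A delivers each aminoacyl-tRNA and is recharged by eEF1B, eEF2 moves the ribosome by a codon, and eIF5A relieves stalled peptide bond formation. Skeletal muscle is known as 1 of the few tissues in which Eef1a2 takes the place of the general Eef1a1 after birth.

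Annotated genes held 1117891 reads in replicate 1 and 975696 in replicate 2. The translation factor genes held 9663 and 7206 of these, or 0.864% and 0.739%. A long read counts once whatever its length, so CPM was not divided by length, and ratios between genes are ratios of reads. How fully RNA of each length was recovered was not tested. The deposited class of each read's transcript model was Known, an annotated transcript, for 78.9% of the reads of these genes in replicate 1 and 76.8% in replicate 2. Over all annotated genes the shares were 63.6% and 59.3%. Models with an unannotated splice site (NNC) held 2.01% and 2.23% of the reads of translation factor genes against 17.9% and 21.5% of all reads of annotated genes. The shares over all genes are weighted by reads, and Atp2a1 alone had 151696 CPM in replicate 1 and 191442 CPM in replicate 2. How these shares compare for a typical gene was not tested. The list taken for fast fibres summed to 331751 CPM in replicate 1 and 361883 CPM in replicate 2. All 6 of its genes had reads in both libraries. Ckm (61543 and 55015 CPM) and Acta1 (59373 and 51587 CPM) are in this list but are not particular to fast fibres. By the test described further on, Ckm, Acta1 and Tnnc2 were called higher in replicate 1. Myh4, Atp2a1 and Actn3, the other 3 genes of the list, were called higher in replicate 2. Markers of slow fibres summed to 771 CPM in replicate 1 and 5481 CPM in replicate 2. All 8 of the slow markers were called higher in replicate 2 by the same test. Of other cells, fibroblast markers summed to 325 and 451 CPM, erythroid markers to 174 and 115 CPM, endothelial markers to 60.8 and 47.1 CPM, macrophage markers to 54.6 and 19.5 CPM and Schwann cell markers to 58.1 and 23.6 CPM. Within these lists the collagens Col1a1, Col1a2 and Col3a1 were called 3.56-fold to 5.24-fold higher in replicate 2, and Dcn (1.71-fold), Lyz2 (4.95-fold) and Mbp (3.37-fold) were called higher in replicate 1.

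A few alternative coding segments vary the proteins made from these genes, and their sequences come first. They were chosen from 6 genes, as coding segments with both forms in the reads. Each is given 5′ to 3′ on its coding strand, from the GENCODE M21 transcripts of mm10, with the alternative segment in capitals and 12 bases of the neighbouring exons in lower case. The Eef1d flanks are those of transcripts that lack the other of its alternative exons, which most Eef1d reads hold. The first pair belongs to Eef1d, a nucleotide exchange factor of eEF1A, the next segment to Eif4h, which stimulates the helicase eIF4A, and the others to the eIF4G family and Eif4a2.
Eef1d 57-base exon, chr15:75897226-75897282, minus strand: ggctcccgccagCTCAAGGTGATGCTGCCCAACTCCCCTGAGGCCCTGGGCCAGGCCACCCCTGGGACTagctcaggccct
Eef1d 72-base exon, chr15:75900691-75900762, minus strand: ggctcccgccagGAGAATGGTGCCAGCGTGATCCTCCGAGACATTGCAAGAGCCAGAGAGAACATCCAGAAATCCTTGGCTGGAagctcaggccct
Eif4h 60-base exon, chr5:134624441-134624500, minus strand: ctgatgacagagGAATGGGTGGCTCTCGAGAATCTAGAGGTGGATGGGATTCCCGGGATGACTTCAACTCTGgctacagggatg
Eif4g2 114-base exon, chr7:111076280-111076393, minus strand: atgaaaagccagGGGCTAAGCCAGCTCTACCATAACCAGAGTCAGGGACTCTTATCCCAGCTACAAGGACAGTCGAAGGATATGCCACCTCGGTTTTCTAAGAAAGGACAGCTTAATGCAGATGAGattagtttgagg
Eif4g3 57-base acceptor segment, chr4:138180490-138180546, plus strand: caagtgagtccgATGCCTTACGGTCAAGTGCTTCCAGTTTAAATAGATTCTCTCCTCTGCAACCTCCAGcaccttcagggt
Eif4g1 3-base acceptor segment, chr16:20681734-20681736, plus strand: ccccgagggccgCAGgctggcctggga
Eif4a2 3-base acceptor segment, chr16:23108585-23108587, plus strand: ggattacaacagCAGagaacatggcgg

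The levels of the 63 detected genes spanned from 1.41 CPM for Eif5a2 to 865 ± 289 CPM (SD, n = 2) for Eif1. The 3 most abundant genes held 26.2% of all reads of the translation factor genes, the top 5 held 36.8% and the top 10 held 57.3%. After Eif1 the order of mean levels was Eif4g2, Eef2, Eif5a, Eif2s2, Eef1g, Eif4a2, Eif4g1, Eif5 and Eef1a2. Neighbours in this order differed by less than the larger of their SDs over the libraries, except Eef2 and Eif5a and, lower down, Eif5 and Eef1a2. Eif4g2, for example, had 642 ± 81.9 CPM and Eef2 587 ± 101 CPM, and their order was opposite in the 2 libraries.

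**Figure D1:**
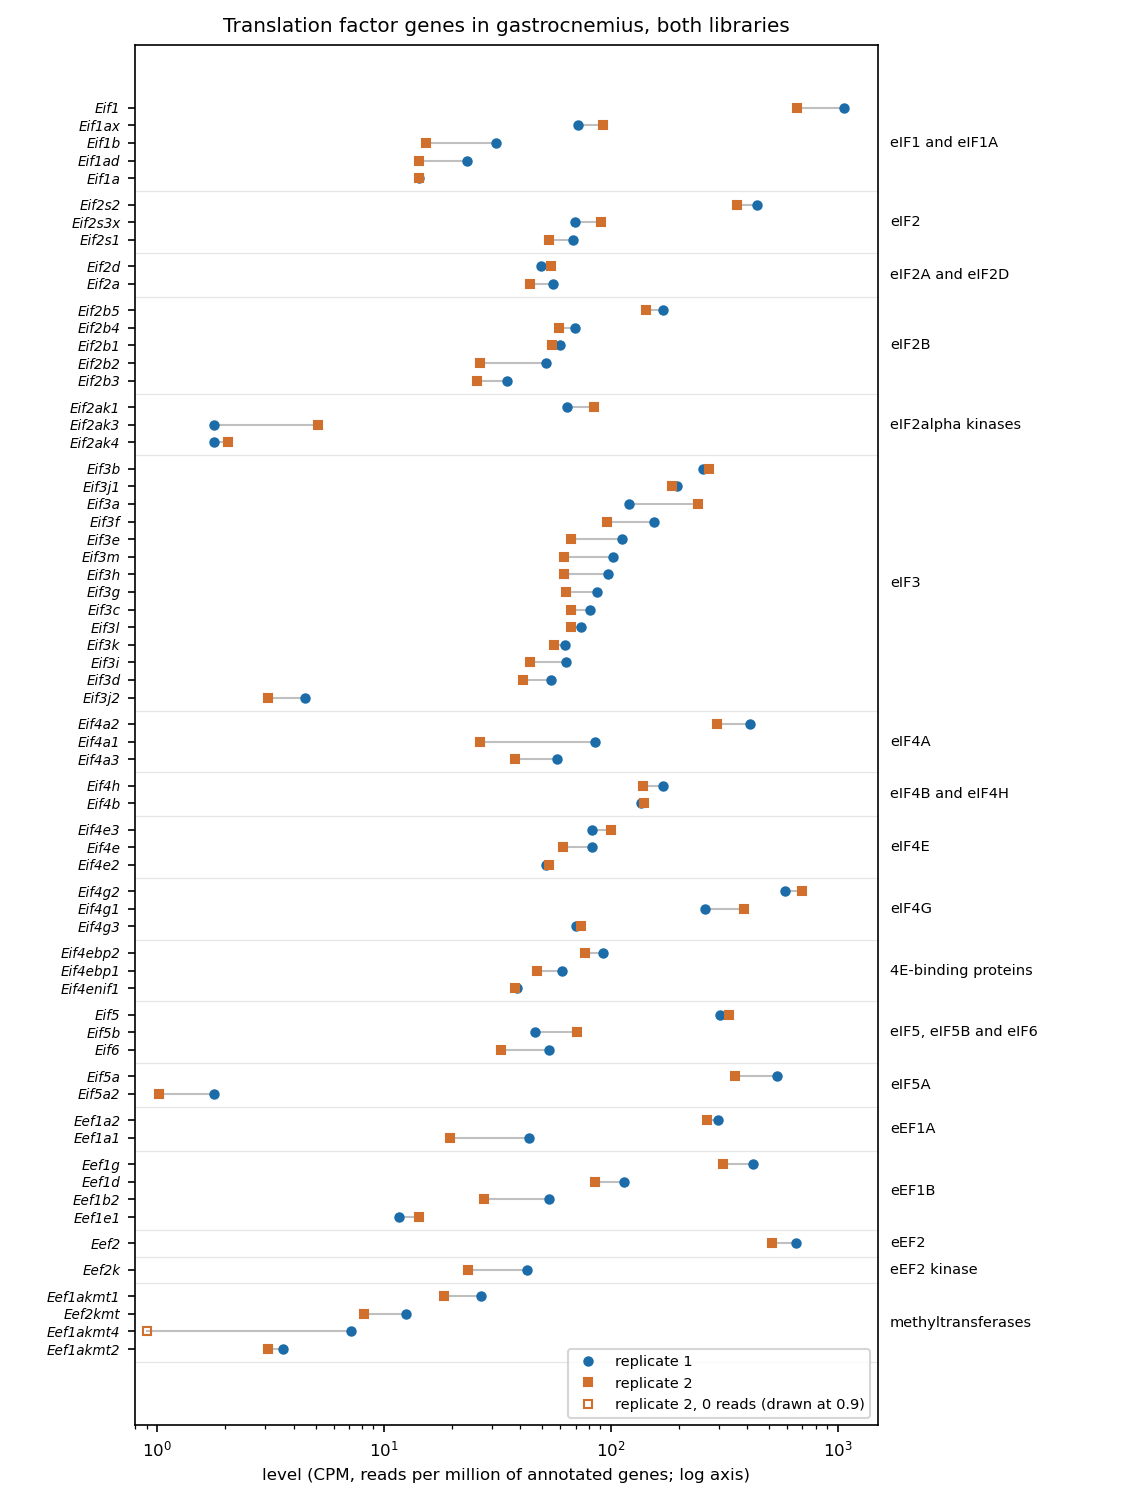
Level of each of the 63 detected translation factor genes in CPM (log axis), grouped by role, with replicate 1 as circles and replicate 2 as squares. Most pairs of points lie close together beside the span from 1.41 to 865 CPM, and Eif4a1 shows one of the widest gaps, at 85.0 and 26.6 CPM.

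Among the factors that prepare the small subunit, Eif1 led. Eif1, which guards the choice of start codon, had 1195 reads in replicate 1 and 644 in replicate 2, while its paralog Eif1b had 35 and 15. Eif1 thus held 97.2% (Wilson 95% interval 96.1 to 97.9) and 97.7% (96.3 to 98.6) of the reads of this pair. eIF1A is encoded by the X-linked Eif1ax and by Eif1a. Eif1ax had 80 and 90 reads and Eif1a 16 and 14, so the X-linked copy held 83.3% and 86.5%. Eif1ad, which carries an eIF1A domain, had 26 and 14 reads.

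The 3 subunits of eIF2 were read at unequal levels. Eif2s2, the beta subunit, had 493 reads in replicate 1 and 352 in replicate 2. Eif2s1, the alpha subunit that the stress kinases phosphorylate, had 76 and 52, and Eif2s3x, the gamma subunit that binds GTP and the initiator tRNA, had 78 and 88. Eif2s2 was 6.49 times Eif2s1 in replicate 1 (exact 95% interval 5.09 to 8.37) and 6.77 times in replicate 2 (5.05 to 9.24). Over Eif2s3x it was 6.32 times (4.97 to 8.13) and 4.00 times (3.16 to 5.11). Eif2s2 thus had more reads than either partner in each library. The leading Known transcripts are 2542 bases long for Eif2s2, 3405 for Eif2s1 and 3647 for Eif2s3x. A near-identical processed pseudogene of Eif2s2, Gm9892, took only 3 reads and 0 reads. Eif2a and Eif2d, which can bring initiator tRNA by other routes, had 62 and 43 reads and 55 and 53 reads.

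The exchange factor eIF2B was read from all 5 of its genes. Eif2b5, the catalytic epsilon subunit, led with 191 and 140 reads. Eif2b4 followed with 78 and 58, Eif2b1 with 67 and 54, Eif2b2 with 58 and 26, and Eif2b3, the partner of epsilon in catalysis, was lowest with 39 and 25. Eif2b5 was 4.90 times Eif2b3 in replicate 1 (3.46 to 7.10) and 5.60 times in replicate 2 (3.64 to 8.95). Of the 4 kinases that switch eIF2 off by phosphorylating its alpha subunit, Eif2ak1, the haem-regulated kinase, had nearly all the reads. Eif2ak1 had 72 and 82 reads, or 94.7% (87.2 to 97.9) and 92.1% (84.6 to 96.1) of the set. Eif2ak3, the kinase of endoplasmic reticulum stress, had 2 and 5, Eif2ak4, the amino acid sensor, had 2 and 2, and Eif2ak2, the kinase activated by double-stranded RNA, had none.

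The scaffold complex eIF3 was read from all 14 annotated genes, which together held 1466 CPM in replicate 1 and 1327 CPM in replicate 2. Eif3b had the most reads at 285 and 264, followed by Eif3j1 at 219 and 181 and Eif3a at 135 and 236. Eif3f had 174 and 94 reads, Eif3e 125 and 65, Eif3m 114 and 61, Eif3h 109 and 61 and Eif3g 97 and 62. Eif3c had 91 and 65 reads, Eif3l 83 and 65, Eif3k 70 and 55, Eif3i 71 and 43, and Eif3d, the lowest of the 12 genes apart from the 2 Eif3j copies, had 61 and 40. Eif3b was 4.67 times Eif3d in replicate 1 (3.53 to 6.27) and 6.60 times in replicate 2 (4.72 to 9.45). Eif3j1 and Eif3j2 are near-identical, with 94.0% of the 31-base words of Eif3j2 found in Eif3j1, so their split of 219 against 5 and 181 against 3 reads is uncertain.

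The helicase eIF4A came mainly from Eif4a2. Eif4a2 had 462 reads in replicate 1 and 288 in replicate 2, Eif4a1 had 95 and 26, and Eif4a3, which acts in the exon junction complex, had 65 and 37. Eif4a2 held 74.3% (70.7 to 77.6) of the 3 genes' reads in replicate 1 and 82.1% (77.7 to 85.7) in replicate 2, and these intervals do not overlap. It was read 4.86 times as often as Eif4a1 in replicate 1 (3.89 to 6.13) and 11.1 times as often in replicate 2 (7.41 to 17.2). A processed pseudogene, Eif4a-ps4, shares 97.4% of its 31-base words with Eif4a1 and took 63 and 27 reads of its own. With those reads counted as Eif4a1, the mean share of Eif4a2 was 71.8% in place of 78.2%, and Eif4a2 was still the most read of the 3 genes. The helicase partners Eif4b and Eif4h had 152 and 137 reads and 190 and 136 reads.

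Of the cap-binding proteins, Eif4e3 and Eif4e were level in replicate 1, and Eif4e3 led in replicate 2. Eif4e3, an atypical cap-binding member, had 92 reads in replicate 1 and 98 in replicate 2. Eif4e, the classical cap-binding subunit, had 92 and 60, and Eif4e2, a cap-binding protein that represses translation, had 58 and 52. Eif4e3 held 38.0% and 46.7% of the set, and its Wilson interval overlapped that of Eif4e in replicate 1 and lay above it in replicate 2. The annotation has another coding gene, Gm20696, on the same strand over Eif4e3, which adds uncertainty to reads of that locus.

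The eIF4G scaffolds were led by Eif4g2, the member without an eIF4E-binding region. Eif4g2 had 653 reads in replicate 1 and 683 in replicate 2, Eif4g1 had 290 and 376, and Eif4g3 had 79 and 72. Eif4g2 held 63.9% (60.9 to 66.8) and 60.4% (57.5 to 63.2) of the set. The reads of Eif4g1 and Eif4g3 lay mostly on partial models. Models of incomplete splice match (ISM), whose introns are a run of an annotated transcript's, held 63.7% of Eif4g1 reads and 70.2% of Eif4g3 reads, against 20.2% for Eif4g2. Only 88 of 290 and 146 of 376 Eif4g1 reads lay on models that reached its most common annotated start codon, and for Eif4g3 only 20 of 79 and 3 of 72 did. A share counted over Known models alone would put Eif4g2 at 96.3%, so the split within this family depends on counting partial models.

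The eIF4E-binding proteins Eif4ebp1 and Eif4ebp2 hold eIF4E away from eIF4G until growth signalling phosphorylates them. Eif4ebp2 had 103 reads in replicate 1 and 75 reads in replicate 2, and Eif4ebp1 had 68 and 46. Of the Eif4ebp2 reads, however, 90 and 68 lay on single-exon models inside the annotated last exon, and only 13 and 6 lay on Known models. Over Known, NIC and NNC models, where NIC denotes annotated splice sites in an unannotated combination, the mean share of Eif4ebp2 in the set fell from 61.1% to 13.9%, and Eif4ebp1 then led. Of the Eif4ebp1 reads 99.1% lay on Known, NIC or NNC models. Eif4enif1, which carries eIF4E into the nucleus, had 43 and 37 reads.

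The later steps of initiation were read from Eif5, which triggers GTP hydrolysis on eIF2, with 340 and 323 reads, from Eif5b with 52 and 69, and from Eif6, which keeps the subunits apart, with 60 and 32. eIF5A came almost wholly from Eif5a, with 606 reads in replicate 1 and 345 in replicate 2 against 2 and 1 for Eif5a2. Eif5a thus held 99.7% of the pair in each library (98.8 to 99.9 and 98.4 to 99.9). Of the enzymes that place hypusine on eIF5A, Dhps had 33 and 14 reads and Dohh 56 and 41.

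In elongation Eef1a2 was the main eEF1A gene. Eef1a2 (chr2:181141760-181151069, minus strand) had 332 reads in replicate 1 and 259 in replicate 2, while Eef1a1 (chr9:78478449-78480841, minus strand) had 49 and 19. Eef1a2 held 87.1% (83.4 to 90.1) and 93.2% (89.6 to 95.6) of the reads of the pair. The ratio of Eef1a2 to Eef1a1 was 6.78 in replicate 1 (5.01 to 9.34) and 13.6 in replicate 2 (8.55 to 23.0), and these intervals overlap. The transcripts share no 31-base word, and their leading Known models are of similar length, at 2084 and 1794 bases. Of the 3 annotated loci sharing over 50% of their words with Eef1a1, a processed pseudogene took 0 reads, Gm26377, which lies inside Eef1a1 on its strand, took 4 and 2, and Gm26384 took 1 and 3. Eef1a1 was read in both libraries. In bulk RNA fewer cells of a type and less RNA per cell cannot be told apart, and which cells the Eef1a1 reads came from was not tested.

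**Figure D2:**
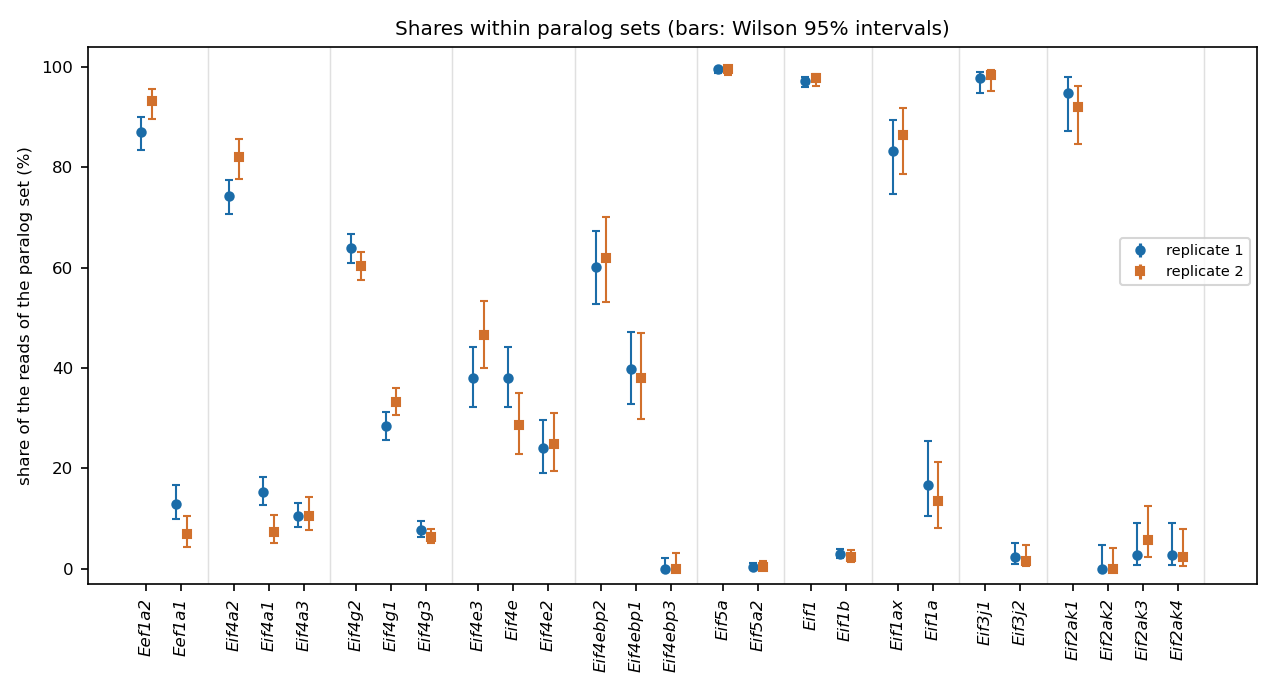
Share of each paralog in the reads of its set, in percent, for replicate 1 (circles) and replicate 2 (squares), with Wilson 95% intervals for counting error. Eef1a2 lies at 87.1% and 93.2%, Eif4a2 at 74.3% and 82.1%, and the eIF4E and 4E-binding sets are the most evenly divided.

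The eEF1B complex, which recharges eEF1A, was unevenly read. Eef1g, its structural gamma subunit, had 475 and 304 reads, Eef1d, an exchange subunit, had 128 and 83, and Eef1b2, the other exchange subunit, had 60 and 27. Eef1g was 7.92 times Eef1b2 in replicate 1 (6.04 to 10.5) and 11.3 times in replicate 2 (7.59 to 17.4). Eef1e1, which is known in the aminoacyl-tRNA synthetase complex, had 13 and 14 reads. Eef2, the translocase, had 736 and 503 reads, and Eef2k, the kinase that switches it off, had 48 and 23. Of the methyltransferases of eEF1A and eEF2, Eef1akmt1 had 30 and 18 reads and Eef2kmt 14 and 8, while Eef1akmt2 with 4 and 3 and Eef1akmt4 with 8 and 0 were too low for a fold.

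For the most read transcript of each gene, no difference in share between the libraries was called. The alternative segments described further on were not tested. The transcript with the most reads took a median of 96.0% of the Known, NIC and NNC reads of a translation factor gene, beside 89.8% over all genes, in the 47 translation factor genes that had 20 or more such reads per library, and 33 of the 47 exceeded 90%. Its share was called different between the libraries in 0 of the 47 (Fisher's exact test, 2-sided, Benjamini-Hochberg adjustment over 3521 genes), where 0.483% of all genes tested were called. Only Eif4e had an unadjusted p below 0.05, with its leading transcript at 72 of 81 reads in replicate 1 and 38 of 55 in replicate 2 (Fisher's exact p = 0.00686, adjusted p = 0.461). In 43 of the 47 the leading transcript was Known. In Eef1d, Eif4e2, Eif4enif1 and Eif4g1 it was an unannotated combination of annotated splice sites.

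Within the genes, 15 alternative segments in 9 genes had at least 10 reads of each form, of which 9 were cassette exons. All 12 segments lying wholly inside an annotated coding stretch were a multiple of 3 bases long and so keep the reading frame. Not counted as coding were exons of 79 bases in Eif4e2, 94 bases in Eif5a and 111 bases in Eif4a2. The first 2 are not a multiple of 3. The Eif4e2 exon was kept in 58.3% and 69.4% of reads, the Eif5a exon in 8.64% and 9.32% and the Eif4a2 exon in 1.59% and 2.58%. The best covered was the 114-base exon of Eif4g2, kept in 555 of 610 reads in replicate 1 (91.0%) and 581 of 649 in replicate 2 (89.5%). The 60-base exon of Eif4h was mostly left out, and was kept in 31 of 169 reads (18.3%) and 21 of 121 (17.4%). The 57-base acceptor segment of Eif4g3 was kept in 31 of 63 and 29 of 62 reads (49.2% and 46.8%), so both forms were about equally common.

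In Eif4a2 and Eif4g1, acceptors 3 bases apart add or drop a CAG triplet, the capitals in their sequences. In Eif4a2 the triplet was kept in 110 of 434 reads in replicate 1 (25.3%, Wilson interval 21.5 to 29.6) and 55 of 266 in replicate 2 (20.7%, 16.2 to 25.9). In Eif4g1 it was kept in 70 of 176 (39.8%, 32.8 to 47.1) and 102 of 302 (33.8%, 28.7 to 39.3). Both intervals overlapped between the libraries. The segment with the widest gap was a 135-base exon of Eef2k, kept in 16 of 29 reads in replicate 1 (55.2%, 37.5 to 71.6) and 13 of 14 in replicate 2 (92.9%, 68.5 to 98.7), on few reads and with an unannotated skipping intron. It was named after its values were seen, and its difference was not tested.

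Reads of Eef1d showed how its alternative exons go together. Of the reads spanning the 57-base and the 72-base exon, 75 of 122 in replicate 1 (61.5%, 52.6 to 69.6) and 47 of 75 in replicate 2 (62.7%, 51.4 to 72.7) held both. The 72-base exon alone was held by 30 and 21 reads, the 57-base exon alone by 9 and 3, and neither by 7 and 3. The 2 exons of this most common form occur together in 1 GENCODE M21 transcript of this gene. The leading Eef1d transcript as a whole was nonetheless an unannotated combination of annotated splice sites. It held 70 of 122 Known, NIC and NNC reads in replicate 1 and 44 of 77 in replicate 2. The 1140-base coding exon of the long Eef1d form was touched by only 1 and 3 reads.

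**Figure D3:**
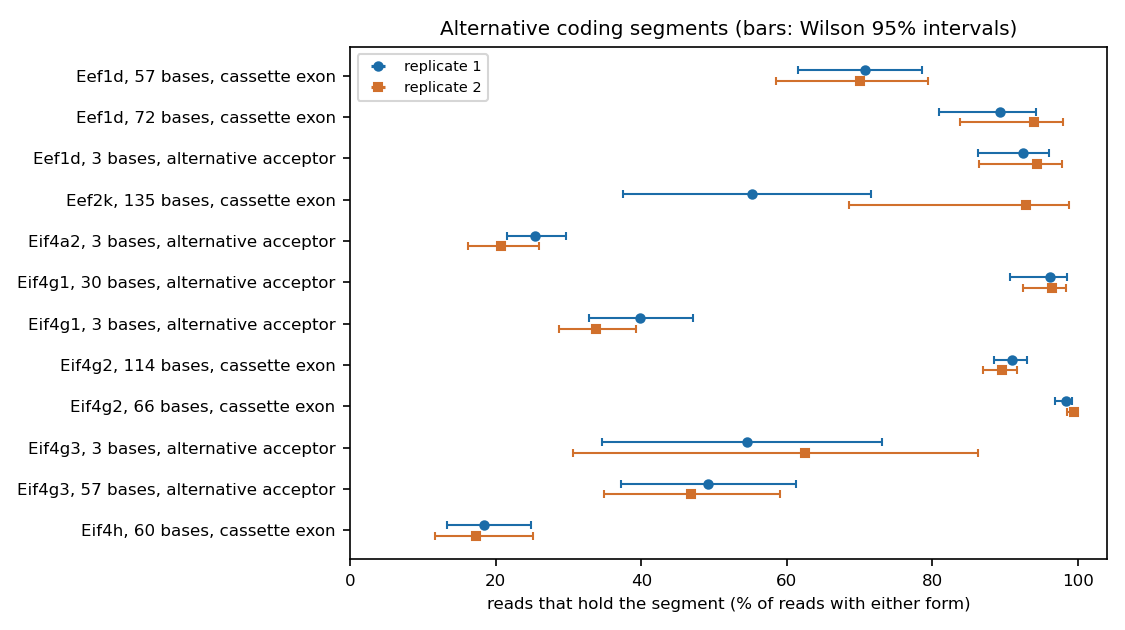
Share of reads that hold each alternative coding segment, in percent of the reads with either form, for replicate 1 (circles) and replicate 2 (squares), with Wilson 95% intervals. For a cassette exon seen between different neighbours, the set with the most reads is drawn. The shares of the libraries lie close together except for the Eef2k exon, at 55.2% and 92.9%.

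Between the libraries, 11 of the 57 tested genes were called different (exact binomial test, 2-sided, Benjamini-Hochberg adjustment over 8394 annotated genes, threshold 0.05), or 19.3%, where 11.7% of all genes tested were called. A test on counts calls more genes at higher counts, and these shares were not matched for read depth. Called higher in replicate 1 were 8 of the 57, where 4.61% of all genes tested were. Called higher in replicate 2 were 3 of the 57, where 7.06% of all genes tested were. The 8 became 14 when scaled by total reads and 4 over Known models only. Folds and log2 ratios between the libraries use TMM effective library sizes. They therefore differ from ratios of the CPM values, which use the total reads of annotated genes. The log2 ratio, replicate 1 over replicate 2, had a median of 0.21 over the 57 genes and of -0.01 over all genes tested, with 38 of the 57 above 0. This test knows only counting error. With the common dispersion of the libraries added (edgeR's exact test), 0 of the 57 were called and 0.286% of all genes were, and only Eif3a and Eif4a1 then had an unadjusted p below 0.05. That dispersion was estimated from the same 2 libraries taken as 1 group, so it holds any difference between them, and few calls follow from its construction. At an unadjusted p below 0.05, 23 of the 57 passed the binomial test.

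Higher in replicate 2 was Eif3a, at 121 CPM in replicate 1 and 242 CPM in replicate 2, a 2.17-fold difference (exact 95% interval 1.75 to 2.70; exact binomial test, adjusted p = 1.65e-11). Eif4g1 was also higher in replicate 2, at 259 and 385 CPM, 1.61-fold (1.38 to 1.88; exact binomial test, adjusted p = 4.9e-08). Eif4g2 followed at 584 and 700 CPM, 1.30-fold (1.16 to 1.45; exact binomial test, adjusted p = 5.7e-05). All 3 have leading Known transcripts of at least 5004 bases, but only 5.26% of Eif4g1 reads lay on Known models.

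Higher in replicate 1 was Eif4a1, at 85.0 and 26.6 CPM, a 2.94-fold difference (1.89 to 4.74; exact binomial test, adjusted p = 6.02e-06). Eif1 stood at 1069 and 660 CPM, a log2 difference of 0.58 (1.36-fold to 1.65-fold; exact binomial test, adjusted p = 7.09e-15). Eif5a differed 1.42-fold, Eif4a2 1.29-fold, Eef1g 1.26-fold and Eef2 1.18-fold in the same direction, and so did the eIF3 subunits Eif3f at 1.49-fold and Eif3e at 1.55-fold. Eif4a1 and Eif3a were the only ones to differ at least 2-fold among those called. Over Known models only, 5 were no longer called, with log2 ratios of 0.21 in place of 0.24 for Eef2, 0.58 in place of 0.63 for Eif3e, 0.49 in place of 0.57 for Eif3f, 0.31 in place of 0.33 for Eef1g and -0.56 in place of -0.69 for Eif4g1. Eef1a1, with 49 and 19 reads, missed the threshold (2.08-fold, 1.20 to 3.74; exact binomial test, adjusted p = 0.0566), and Eef1a2 was level at 1.03-fold (0.876 to 1.22).

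The direction of these differences moved with transcript length. Among the 57 genes the Spearman correlation of the log2 ratio with the length of the leading Known model was -0.67, and among 8041 genes of the whole table it was -0.37. Of the 10 translation factor genes with a leading model under 1500 bases, 10 were above 0 in log2 ratio, with a median of 0.46, while the median over all 1746 genes of that length was 0.29. From 1500 to 3000 bases the medians were 0.29 over 29 genes and 0.08 over all. At 3000 bases or more 5 of 18 were above 0, with medians of -0.17 over the 18 and -0.27 over all. The 3 genes called higher in replicate 2 were in this range, and so was Eef2 (3089 bases), called higher in replicate 1. The ratios count reads of all models, while Known models held few of the reads of some genes. Their share was 1.99% for Eif4g3, 5.26% for Eif4g1 and 10.7% for Eif4ebp2. Genes are not independent replicates, so the correlations are descriptions. Other properties moved with the libraries too, since the slow fibre markers and collagens were higher in replicate 2 and Dcn, Lyz2 and Mbp in replicate 1. What part length, fibre type or other cells had in these calls was not tested.

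**Figure D4:**
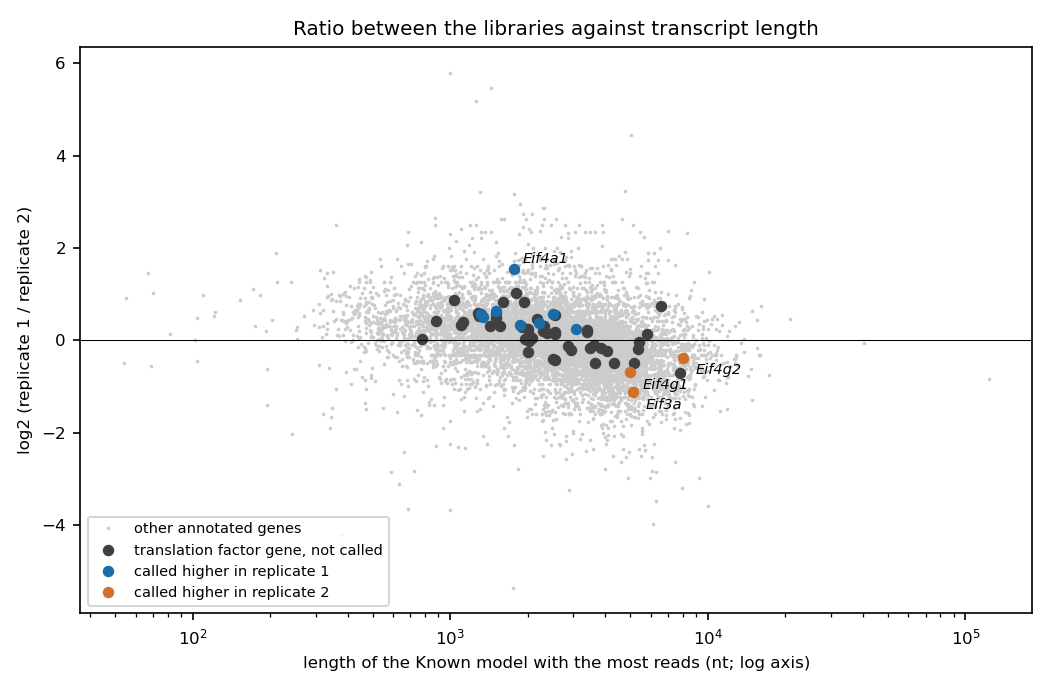
Log2 ratio of replicate 1 over replicate 2 against the length in bases of the Known model with the most reads (log axis), for the 57 tested translation factor genes (dark, blue or orange points) and all other genes (grey). The points fall from left to right, with the 10 shortest translation factor genes above 0 and Eif3a, Eif4g1 and Eif4g2 below it.

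Genes that act beside these factors were read from a list of 34, with the release factors, poly(A)-binding proteins, growth kinases, stress response genes and mitochondrial translation factors. Of the 34, 32 were tested, 1 was called higher in replicate 1, 2 were called higher in replicate 2 and 29 were not called, and their median log2 ratio was -0.01. Atf4, the transcription factor translated when eIF2 is phosphorylated, had 62 and 22 reads (2.27-fold, 1.38 to 3.88; exact binomial test, adjusted p = 0.00817). Gfm2, a mitochondrial ribosome recycling factor, was read 28 times in replicate 1 and 64 times in replicate 2, a 2.84-fold difference (1.79 to 4.59; exact binomial test, adjusted p = 4.35e-05). Mknk2, a kinase that phosphorylates eIF4E, had 794 and 762 reads. Scaled by TMM effective library sizes it was 1.19-fold higher in replicate 2 (1.08 to 1.32, exact binomial test, adjusted p = 0.00837). Scaled by total reads, as CPM is, it was not called. Mknk2, at 710 CPM in replicate 1 and 781 CPM in replicate 2, was read less than Eif1 in replicate 1 and more than Eif1 in replicate 2. Its relative Mknk1 had 37 and 30 reads.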

How the data were processed

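Each library's deposited table gives raw read counts for its transcript models, and the deposited annotations, per the file headers, give exon numbers, lengths and 1-based positions on mm10. Per the deposited notes these are GENCODE M21 transcripts plus models built in each library, which bear TALON identifiers; aligner, filters and versions were not given in the sources used here. Lengths of added models are unreliable (an Eif4ebp2 model is listed with length 1), so lengths are of Known models. Counts were summed over all models of a gene, and CPM was taken over annotated genes without spike-ins.

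Genes with at least 10 reads were tested with TMM effective library sizes (edgeR 4.0.16, R 4.3.3; factors 1.04 and 0.961). Log2 ratios used 0.5 added reads. A count of 0 was bounded by 3 reads. Intervals are at 95% and cover counting error only. Near-identical copies shared over 50% of 31-base words. Splice segments were counted over models of all classes, and models were matched by intron chain. Alternatives were total reads, DESeq2 1.42.0 size factors, no filter, fewer model classes, a common dispersion (0.0622) and other minimums. Procedures were tested on counts simulated with counting error only, so how they behave with further spread between libraries was not tested. Computation used Python 3.11.15, numpy 2.4.6, pandas 2.3.3, scipy 1.17.1 and matplotlib 3.10.9, with seed 1.

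All genes of the name rule are accounted for, and named with values are the paralog sets, the subunits of eIF2, eIF2B, eIF3 and eEF1B, the 10 most abundant, and the called genes. The members and lists were chosen with earlier results of these data known. No protein sequences were used here.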

Additional observations from a re-analysis of the deposited data

Results flagged for a closer look

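Reads lay outside the counts of the translation factor genes at 5 places, each with more than the 3 reads that a count of 0 allows in both libraries. The processed pseudogene Eif4a-ps4 (chr1:60703932-60705149, plus strand), near-identical to Eif4a1, took 90 reads over the libraries, 63 in replicate 1 and 27 in replicate 2. Gm4366, a processed pseudogene sharing 88.2% of its 31-base words with Eef1g, took 19, with 6 and 13. Unannotated loci on the same strand over Eef1a2 took 41, with 21 and 20. On the opposite strand, unannotated loci over Eif4g3 took 32, with 19 and 13, and those over Eif3h took 10, with 6 and 4. The source of these reads was not tested.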

How the results depend on the processing

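No paired analysis was possible because the series has 1 group. With 1 library left out no call can be made, so leaving out a replicate applies to shares and levels only. The count of translation factor genes called higher in replicate 1 was 8, against 14 with total reads, 4 over Known models only and 0 with the common dispersion. The count higher in replicate 2 was 3, against 0 with the common dispersion. Total reads moved the median log2 ratio of all genes from -0.01 to 0.11. Among the other translation genes the counts of 1 and 2 became 0 and 0 with the common dispersion, and the latter became 1 with total reads, where Mknk2 lost its call. Eef2 and Eif3e lost their calls without the filter on low counts, Eef2 and Eif3f over Known, NIC and NNC models, and Eef2, Eif3e, Eif3f, Eef1g and Eif4g1 over Known models only; the cause was not tested. An alternative chosen after seeing the data, which added the reads of near-identical copies, lost none of the 11 calls. No called log2 ratio changed sign under the alternatives run, but the lead in the 4E-binding set passed from Eif4ebp2 to Eif4ebp1 without Genomic and ISM models.

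Over Known, NIC and NNC models the mean share was 79.6% for Eif4g2, 13.9% for Eif4ebp2, 99.8% for Eif5a and 97.9% for Eif1. Over Known models it was 96.3% for Eif4g2, 54.0% for Eif4e3, 14.3% for Eif4ebp2, 99.8% for Eif5a, 97.9% for Eif1 and 95.5% for Eif2ak1. With named pseudogenes added Eif4a2 had 71.8%. Summed levels over Known, NIC and NNC models were 596 CPM for eIF2, 112 for eIF2A and eIF2D, 259 for eIF4B and eIF4H, 233 for eIF4E, 726 for eIF4G, 111 for the 4E-binding proteins and 395 for eEF2. Over Known models they were 1573 CPM for eIF1 and eIF1A, 824 for eIF2, 146 for eIF2A and eIF2D, 494 for eIF2B, 103 for the eIF2alpha kinases, 1971 for eIF3, 650 for eIF4A, 358 for eIF4B and eIF4H, 270 for eIF4E, 807 for eIF4G, 117 for the 4E-binding proteins, 536 for eIF5, eIF5B and eIF6, 674 for eIF5A, 370 for eEF1A, 655 for eEF1B and 15.7 for eEF2 kinase. These levels are per 1000000 reads of the same classes. Leading transcripts gave 0 calls at minimums of 10 and 40 reads and over Known models.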
